A study of Rattus norvegicus with 16 samples.

Results

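The miR-30 family was followed through its 6 listed members, rno-miR-30a, rno-miR-30a*, rno-miR-30b-5p, rno-miR-30c, rno-miR-30d and rno-miR-30e, which were taken by name from 677 miRNAs on a rat array. All 6 were among the 114 miRNAs bright enough to be tested. The arrays held miRNA of hindlimb muscle from male Fischer 344 rats, for which the labels name no mutation or treatment. They formed 4 groups of 4: old soleus (a mostly slow-twitch muscle) and young soleus, then old EDL (extensor digitorum longus, a mostly fast-twitch muscle) and young EDL, where old rats were 25 to 28 months and young rats 6 to 7 months old. The comparisons ask how the family differs with age in each muscle and between the muscles at each age.

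A miRNA is a short RNA that guides a repressor complex to messenger RNAs, mainly by pairing of its seed, the bases 2 to 8 from the 5′ end. The 5′ arms of the miR-30 hairpins share one seed and so many targets, while the opposite arm, marked by an asterisk in array names, carries another seed. In the rodent heart the family represses connective tissue growth factor, a matrix-inducing protein, and in mouse myoblast cultures it favours differentiation.

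The mature sequences below show what the members share and where they part, with the seed in capitals and each sequence read 5′ to 3′. They are RefSeq's, on build GRCr8, and 4 of the 6 members had an entry.
rno-miR-30a: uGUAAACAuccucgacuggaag
rno-miR-30e: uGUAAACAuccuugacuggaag
rno-miR-30c: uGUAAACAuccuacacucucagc
rno-miR-30a*: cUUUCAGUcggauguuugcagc
The first 3 share the seed GUAAACA. Counted from the 5′ end, miR-30a and miR-30e differ at 1 of 22 positions (C13U), whereas miR-30a and miR-30c match at 17 of the first 22. miR-30a* comes from the other arm of the miR-30a hairpin and has the seed UUUCAGU. Whether an array probe also binds a near-identical member was not tested. RefSeq places miR-30a at chr9:33233946-33233967 and miR-30a* at chr9:33233987-33234008, both on the plus strand. miR-30e lies at chr5:139637504-139637525 on the minus strand. The mature miR-30c is encoded by 2 hairpins, at chr5:139634505-139634527 (minus strand) and chr9:33253695-33253717 (plus strand), and the array cannot tell their products apart. The first of these hairpins, Mir30c1, is 2906 bases from Mir30e, and both lie inside Nfyc, which encodes a subunit of the transcription factor NF-Y. The second, Mir30c2, is 19.7 kb from Mir30a.

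Levels are log2 of the processed spot signal after dividing each array by its 75th percentile over the 95 probes that stood well above background on all 16 arrays, so a level of 0 is that percentile. A level of one miRNA cannot be set against that of another, because probes differ in brightness. 5 members were well above background on 16 of 16 arrays, and miR-30a* on 14, missing 1 old soleus and 1 young soleus array. The raw processed signals of these 5 were 51.8 to 914 in soleus and 118 to 2226 in EDL, and those of miR-30a* were 24.3 to 78.6 in soleus and 86.0 to 308 in EDL. No member fell to the floor of -4.88 at which dim values were set, the lowest level being -4.02.

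Soleus arrays were dimmer than EDL arrays: the scaling percentile was 290 to 681 in soleus against 589 to 1864 in EDL, and the miRNAs well above background numbered 59 to 86 in soleus against 83 to 138 in EDL. All 8 EDL arrays shared 1 slide, on which old and young lay in separate columns, whereas old soleus and young soleus each had a slide of their own. Slide and age in soleus, and slide and muscle, therefore cannot be told apart. Whether each array came from its own animal is not in the labels, so p-values here reflect only the variation among these samples and that may be technical. All 4 skeletal muscle markers (miR-1, miR-133a, miR-133b, miR-206) were tested. Slow-fibre miR-499 was higher in soleus than EDL by 3.35 (old) and 3.77 (young) on the log2 scale (limma adjusted p = 6.1e-10 and 7.1e-11). In EDL, miR-499 reached down to 0.019 (old) and 0.011 (young) of the scaling percentile, under the floor of 0.0339. Such values were raised to the floor, so these sizes and p-values depend on it. Liver miR-122 and neuronal miR-124 and miR-9 were too dim to test.

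Soleus held less miR-30a, miR-30a* and miR-30b-5p than EDL at both ages with each array divided by its percentile, though several of these calls were lost under other settings. With spike-in scaling in young rats, miR-30a was at -0.15 (adjusted p = 0.25), miR-30a* at -0.12 (adjusted p = 0.40) and miR-30b-5p at 0.21 (adjusted p = 0.10). With array brightness as a covariate, miR-30a* in old rats (-0.56, adjusted p = 0.093) and miR-30b-5p in old (-0.46, adjusted p = 0.14) and young rats (-0.24, adjusted p = 0.35) did not pass. After normexp background correction miR-30a* and miR-30b-5p passed at neither age, and miR-30a* in old rats was at 0.033. miR-30b-5p in young rats also missed the threshold with total gene signal (-0.31, adjusted p = 0.078) and with only the compared groups fitted (adjusted p = 0.073). It did so too without young soleus 7 and 8, whose spike-ins were out of range (-0.28, limma adjusted p = 0.18). In old rats 6 of 6 members were lower in soleus with an adjusted p under 0.05, where 32.5% of all tested miRNAs were lower (limma, Benjamini-Hochberg adjustment over the 114). In young rats 3 of 6 were lower, beside 23.7% of all tested. Every soleus array lay below every EDL array for 5 of 6 members in old rats, beside 30.7% of all tested miRNAs, and for 2 of 6 in young rats, beside 18.4%. The median difference, soleus minus EDL, over the 6 members was -0.57 in old and -0.31 in young rats, against -0.046 and 0.00 over all tested miRNAs. Fewer cells of a type and less RNA per cell cannot be told apart in muscle tissue.

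miR-30a stood at -1.15, -0.85, -0.69 and -0.78 in old soleus 1 to 4, against -0.0034, 0.088, -0.025 and -0.17 in old EDL 1 to 4. Its levels in young soleus 7 to 10 were -0.74, -0.72, -0.33 and -0.51, against 0.024, 0.24, 0.019 and 0.44 in young EDL 7 to 10. At both ages every soleus array lay below every EDL array of that age. The difference was -0.84 ± 0.12 in old rats (SE, 1.79-fold lower, adjusted p = 0.00012) and -0.76 ± 0.12 in young rats (1.69-fold lower, adjusted p = 0.000345).

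miR-30a*, the other arm of the same hairpin, stood at -4.02, -3.60, -3.48 and -3.39 in old soleus, against -2.77, -2.74, -2.74 and -2.88 in old EDL. In young rats it stood at -3.58, -3.25, -3.13 and -3.10 in soleus, against -2.60, -2.36, -2.78 and -2.42 in EDL. As for miR-30a, the muscles did not overlap at either age. The differences were -0.84 ± 0.14 in old rats (adjusted p = 0.00031) and -0.72 ± 0.14 in young rats (adjusted p = 0.00099).

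miR-30b-5p, whose hairpin lies in the same annotated locus as that of miR-30d, stood at -1.88, -1.62, -1.55 and -1.66 in old soleus, against -0.91, -0.78, -1.07 and -1.17 in old EDL. In young rats it stood at -1.64, -1.59, -1.25 and -1.46 in soleus, against -1.26, -1.09, -1.25 and -0.75 in EDL. The muscles were apart in old rats and touched in young rats, where young soleus 9 reached the level of young EDL 7 and 9. The differences were -0.70 ± 0.13 (adjusted p = 0.00055) and -0.39 ± 0.13 (adjusted p = 0.025). Without young EDL 8, young EDL 10, young soleus 7 or young soleus 8, the young difference lay between -0.28 and -0.39 and its adjusted p between 0.050 and 0.092.

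miR-30c, miR-30d and miR-30e differed less between the muscles. miR-30d stood at -2.42, -2.27, -2.30 and -2.22 in old soleus, against -1.97, -2.08, -1.90 and -2.08 in old EDL. In young rats it stood at -2.30, -2.39, -2.26 and -2.29 in soleus, against -2.44, -2.01, -1.90 and -1.95 in EDL. The old groups were apart, and young EDL 7 lay below all young soleus arrays while the other 3 young EDL arrays lay above them. miR-30e stood at -2.97, -2.62, -2.41 and -2.79 in old soleus, against -2.21, -2.10, -2.31 and -2.43 in old EDL, so that 1 array of each group met. In old rats the differences were -0.33 ± 0.10 for miR-30c (adjusted p = 0.017), -0.30 ± 0.10 for miR-30d (adjusted p = 0.022) and -0.43 ± 0.16 for miR-30e (adjusted p = 0.035). The old groups did not overlap for miR-30c either. In young rats the same differences were -0.13 ± 0.10, -0.23 ± 0.10 and -0.068 ± 0.16, none of which passed (adjusted p = 0.36, 0.068 and 0.85). The count of members lower in old soleus dropped to 3 without old soleus 1, which had the lowest level of each of the 6 members in its group, when miR-30c, miR-30d and miR-30e no longer passed (adjusted p = 0.056, 0.063 and 0.10). It dropped to 4 without old EDL 1 or old EDL 3, when miR-30d (0.050 and 0.058) and miR-30e (0.075 and 0.050) missed the threshold, and to 5 without old EDL 2 or old soleus 4, when miR-30e did (0.087 and 0.068). In young rats the count became 4 without young EDL 7, when miR-30d joined at -0.36 (adjusted p = 0.00028), and 2 when any of the 4 arrays named for miR-30b-5p was left out.

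**Figure D1:**
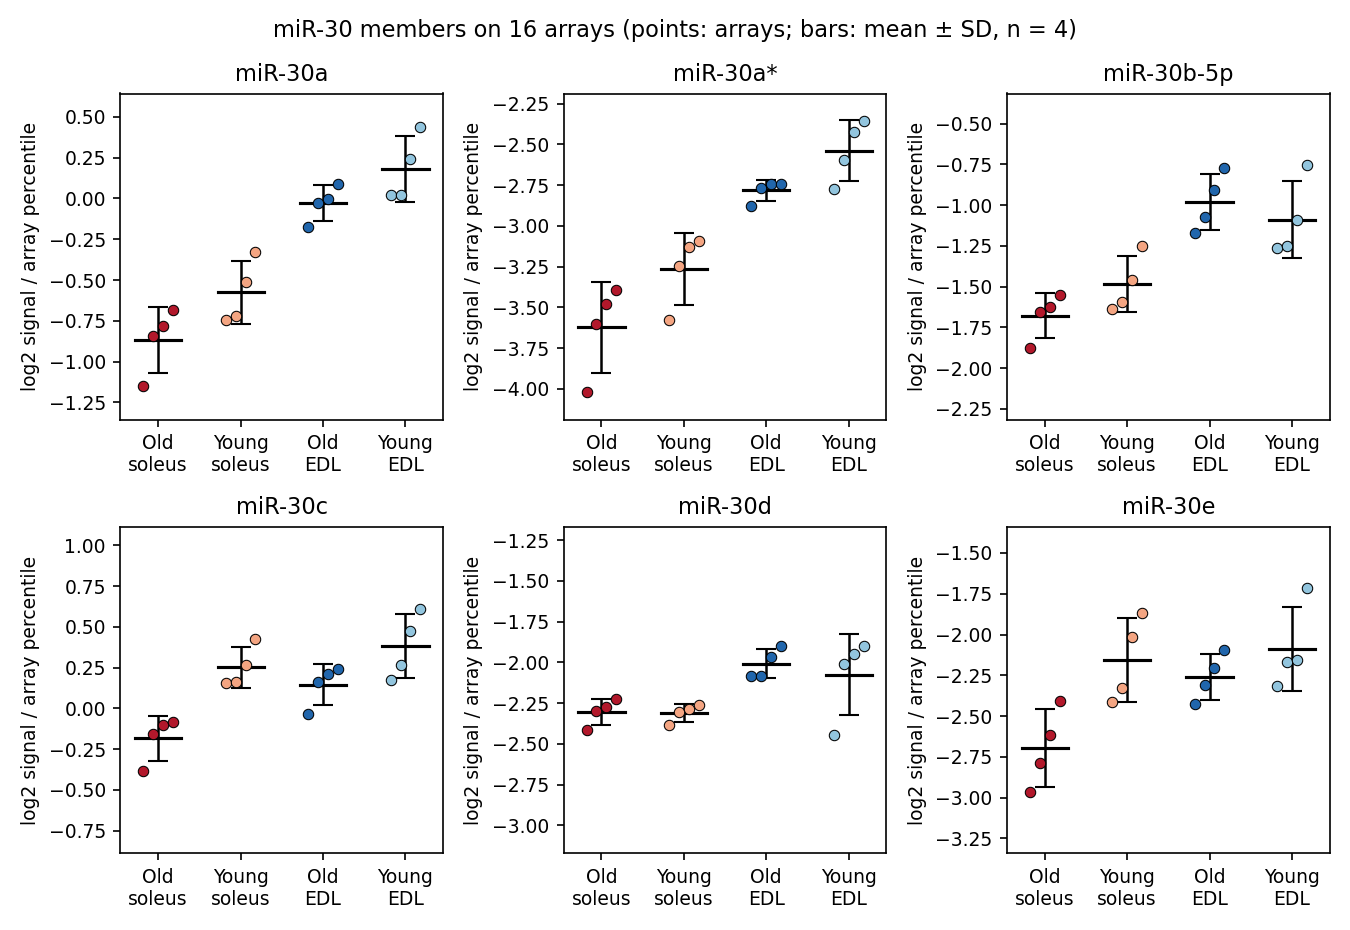
Level of each miR-30 member (log2 signal over the array's percentile) on 16 arrays, with 1 point per array and bars at the group mean ± SD (n = 4); each panel spans the same range of 2 log2 units. miR-30a and miR-30a* are lower in soleus than in EDL at both ages. The group mean is lowest in old soleus for each member except miR-30d.

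The size of the muscle difference depended on how arrays were brought to one scale, and for part of the family so did its sign. Without any scaling the median of all tested miRNAs was itself -1.56 (old) and -0.91 (young) in soleus minus EDL, and with labelling spike-ins as the scale it was 0.027 and 0.29. The spike-ins were out of range on all 4 old soleus arrays and on young soleus 7 and 8. Set against the median of all tested miRNAs, miR-30a was lower in soleus under 6 of 6 scalings, with a difference of -0.97 to -0.51 in old rats and of -1.002 to -0.44 in young rats. miR-30a* and miR-30b-5p were also below that median under 6 of 6 scalings at both ages. Except for quantile normalisation, each scaling shifts all miRNAs of an array alike before dim values are raised to the floor. A member and the median then move together, so agreement across scalings is largely built in and is not a test. For miR-30c and miR-30d the old difference lay below the median under 4 of 6 scalings, and for miR-30e the young difference under 3 of 6. With spike-in scaling, miR-30c, miR-30d and miR-30e turned higher in young soleus than in young EDL, by 0.48 (adjusted p = 0.0015), 0.37 (adjusted p = 0.047) and 0.54 (adjusted p = 0.0023), as the median of all tested miRNAs did.

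**Figure D2:**
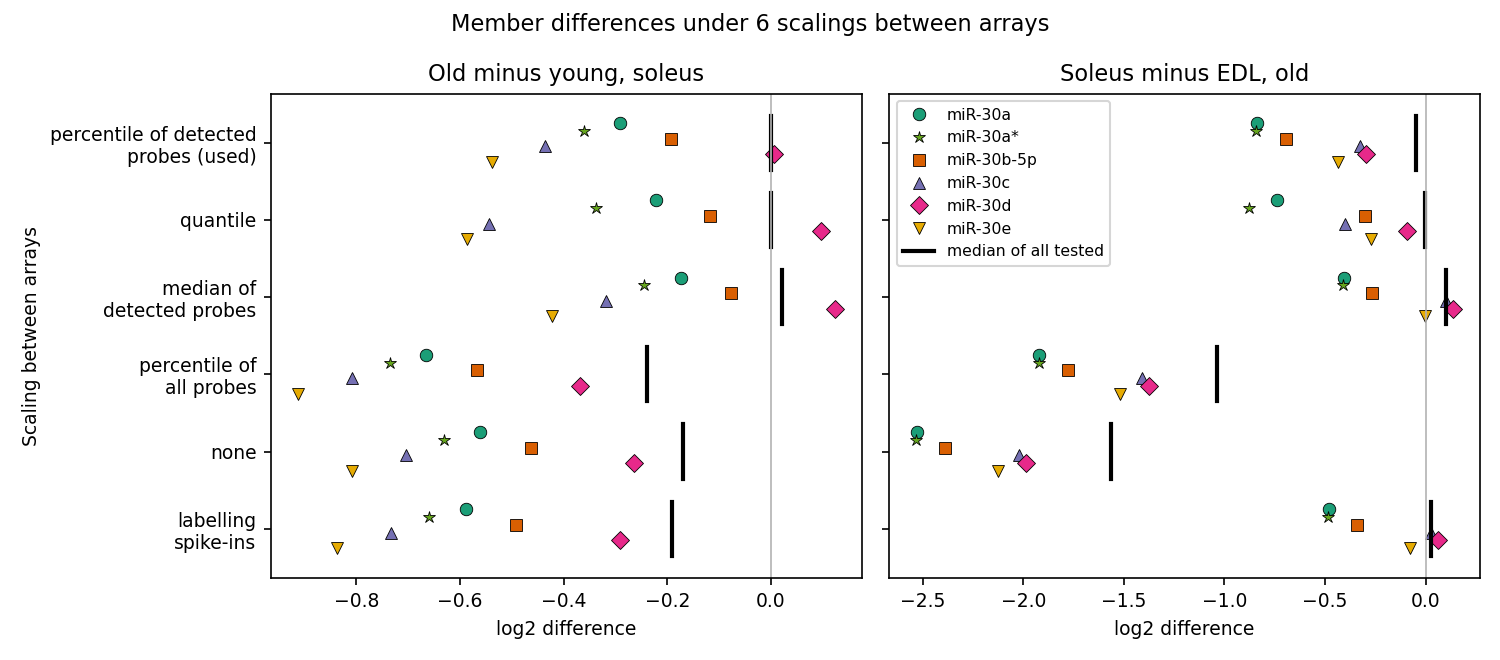
Difference of each member (log2, old minus young soleus on the left, old soleus minus old EDL on the right) under 6 scalings between arrays, with a black bar at the median of all tested miRNAs. miR-30a, miR-30a*, miR-30b-5p and miR-30e lie to the left of the bar under all 6 scalings in both panels. miR-30c does so in the left panel and, like miR-30d, under 4 of 6 in the right. Except for quantile normalisation, a scaling moves points and bar alike apart from floored values, so this agreement is largely built in.

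miR-30c was lower in old than young soleus, and no member passed the test for age in EDL. In soleus 1 of 6 members fell, where 1.75% of all tested miRNAs fell and 3.51% changed in either direction. Among the 85 miRNAs well above background on 8 or more arrays, 9 fell and 12 changed, and 2 of 6 members passed (limma). In EDL 0 of 6 passed (limma; 1 of 6 at an unadjusted p under 0.05, beside 22.8% of all tested), where 12.3% of all tested miRNAs changed. At an unadjusted p under 0.05 the soleus count was 4 of 6, where 30.7% of all tested miRNAs were at that level. The median over the 6 members, old minus young, was -0.33 in soleus and -0.19 in EDL, against 0.00 over all tested miRNAs in each.

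miR-30c stood at -0.38, -0.16, -0.087 and -0.10 in old soleus, against 0.16, 0.16, 0.42 and 0.27 in young soleus. Every old array lay below every young one, which 13.2% of all tested miRNAs also showed in that direction. The difference was -0.44 ± 0.10 (1.35-fold lower, adjusted p = 0.038). This call is near its threshold. It was lost under 6 other settings (the all-probe percentile, no scaling, normexp, the mean over probes, a higher floor, and only the compared groups fitted), with the difference at -0.81 to -0.39 and the adjusted p at 0.053 to 1.0. The adjusted p was between 0.059 and 0.12 without old EDL 1, without young soleus 8, 9 or 10, and without any of the 4 old soleus arrays, with differences of -0.47 to -0.37. Without young soleus 7, the dimmest array, 4 of 6 members passed: miR-30c at -0.53 (adjusted p = 0.0054), miR-30e at -0.69 (0.0075), miR-30a* at -0.53 (0.0092) and miR-30a at -0.41 (0.025). Without that array 34 of all 114 tested miRNAs were called, 24 of them lower, against 4 of 114 with all arrays.

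miR-30e stood at -2.97, -2.62, -2.41 and -2.79 in old soleus, against -2.42, -2.33, -1.87 and -2.01 in young soleus. The groups overlapped only where old soleus 3 was level with young soleus 7. The difference, -0.54 ± 0.16, was the widest of the 6 and missed the threshold (adjusted p = 0.064). It passed under 9 of 33 alternatives and missed the threshold under 24. Among the 9 was the fit without the 11 tested miRNAs that sat at the floor on all arrays, and so had no spread (limma adjusted p = 0.045). The count of members passing in soleus then became 2. Others were quantile normalisation (0.0073), spike-in scaling (0.00031), the median of detected probes (0.023) and the brightness covariate (0.046).

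The other members in soleus showed differences of -0.29 ± 0.12 for miR-30a, -0.36 ± 0.14 for miR-30a*, -0.19 ± 0.13 for miR-30b-5p and 0.0063 ± 0.098 for miR-30d, with adjusted p from 0.12 to 1.0. The 95% interval for miR-30d ran from -0.21 to 0.22, so a change within those bounds remains possible. The sign of the miR-30d difference turned under several settings. In EDL, miR-30c stood at 0.24, 0.21, 0.16 and -0.034 in old rats, against 0.17, 0.47, 0.27 and 0.61 in young rats. The EDL groups overlapped for all 6 members, where 12.3% of all tested miRNAs did not overlap. The EDL differences were -0.24 ± 0.10 for miR-30c (adjusted p = 0.19), -0.21 for miR-30a, -0.24 for miR-30a*, -0.17 for miR-30e, 0.11 for miR-30b-5p and 0.067 for miR-30d, with standard errors of 0.098 to 0.16. The last 2, which were positive, turned negative under 2 other scalings (the percentile over all probes and the median of detected probes), after quantile normalisation and after normexp background correction. The other 4 turned positive, at 0.023 to 0.094, without any scaling, when the median of all tested miRNAs was 0.28. With the median of detected probes as the scale, 3 of 6 members were lower in old EDL, namely miR-30a (-0.37), miR-30a* (-0.41) and miR-30c (-0.40); 17 of all 114 tested miRNAs were then called, 9 of them lower.

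**Figure D3:**
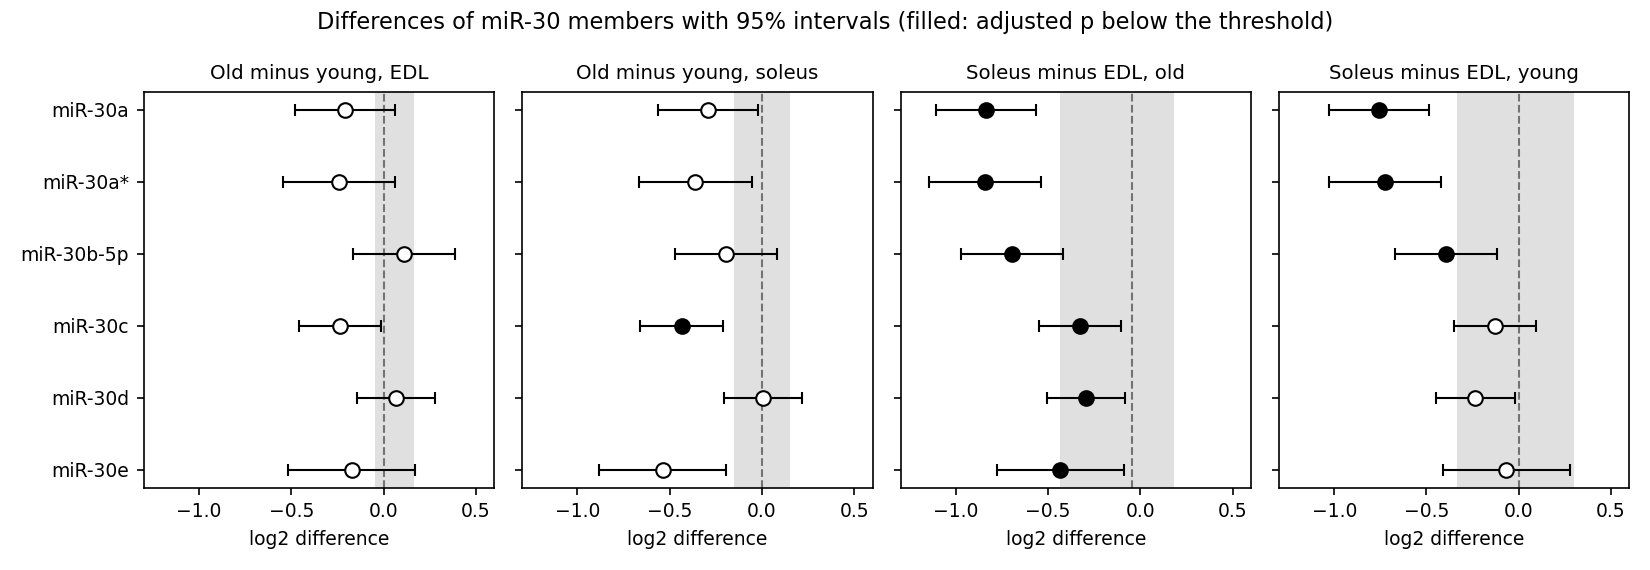
Log2 differences of the 6 members in 4 comparisons, with limma 95% intervals; filled points have an adjusted p under 0.05, the dashed line is the median and the grey band the interquartile range of all 114 tested miRNAs. miR-30a and miR-30a* lie left of the band in both muscle comparisons, and in old minus young soleus only the miR-30c point is filled.

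The age differences of the 2 muscles were not shown to differ for any member. The old minus young difference in soleus minus that in EDL was negative for all 6 members, beside 60.5% of all tested miRNAs (median -0.064). For miR-30a, miR-30a*, miR-30c and miR-30d it was positive with the median of detected probes as the scale. For miR-30b-5p and miR-30d it was positive after quantile normalisation. It was -0.37 ± 0.22 for miR-30e, -0.30 ± 0.18 for miR-30b-5p, -0.20 ± 0.15 for miR-30c and -0.061 to -0.12 for the rest, with adjusted p from 0.55 to 0.90. 0 of 6 passed (limma; 0 of 6 at an unadjusted p under 0.05, beside 11.4% of all tested), where 0.877% of all tested miRNAs did. The intervals remain wide: for miR-30e the 95% interval was -0.85 to 0.12. With labelling spike-ins as the scale, miR-30b-5p, miR-30c and miR-30e passed, at -0.55, -0.45 and -0.62, and 29 of all 113 tested miRNAs were called, all of them lower, with a median of -0.28 over all tested.

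Ordered by group mean, miR-30a stood at -0.87 ± 0.20 in old soleus, -0.58 ± 0.19 in young soleus, -0.029 ± 0.11 in old EDL and 0.18 ± 0.20 in young EDL (SD, n = 4 each). miR-30a* kept this order (-3.62 ± 0.28, -3.26 ± 0.22, -2.78 ± 0.065 and -2.54 ± 0.19). In both, only the step between young soleus and old EDL separated all arrays. miR-30b-5p was lowest in old soleus (-1.68 ± 0.14) and highest in old EDL (-0.98 ± 0.17), with young soleus at -1.48 ± 0.17 and young EDL at -1.09 ± 0.24. For miR-30c, old soleus (-0.18 ± 0.14) lay below old EDL (0.15 ± 0.12), young soleus (0.25 ± 0.13) and young EDL (0.38 ± 0.20), and the upper 3 groups overlapped. miR-30e likewise had old soleus lowest (-2.70 ± 0.24), below old EDL (-2.26 ± 0.14), young soleus (-2.16 ± 0.26) and young EDL (-2.09 ± 0.26). miR-30d varied least, with old soleus at -2.30 ± 0.081, young soleus at -2.31 ± 0.055, young EDL at -2.07 ± 0.25 and old EDL at -2.01 ± 0.091.

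A ratio of 2 members on the same array does not depend on any scale factor between arrays, though quantile normalisation and normexp background correction can change it. Here each member is given as log2 of its signal over the mean (of log2 values) of the 5 members from the 5′ arm. These ratios are described with no test. The ratios of the 5 are bound together: where some are lower, others must be higher. A higher ratio therefore need not mean a higher level. Soleus held relatively less miR-30a than EDL at both ages. The miR-30a ratio was 0.61, 0.66, 0.72 and 0.73 in old soleus, against 0.97, 1.02, 1.004 and 1.004 in old EDL. In young rats it was 0.65, 0.66, 0.73 and 0.69 in soleus, against 1.16, 1.15, 1.05 and 1.11 in EDL. The muscles were well apart at both ages. The miR-30c ratio was higher in soleus, although in old rats the difference, 0.19, was -0.039 with quantile normalisation and -0.034 with normexp. It was 1.36 ± 0.038 in old soleus against 1.17 ± 0.034 in old EDL, and 1.51 ± 0.038 in young soleus against 1.32 ± 0.042 in young EDL (SD, n = 4 each), with no overlap at either age.

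Relative to the family, miR-30c was lower and miR-30b-5p higher on old than on young arrays of both muscles, except that after normexp the miR-30c ratio in EDL was higher by 0.080. The miR-30c ratio was 1.21, 1.14, 1.19 and 1.14 in old EDL, against 1.31, 1.38, 1.30 and 1.28 in young EDL. In soleus it was 1.37, 1.35, 1.32 and 1.41 in old rats, against 1.54, 1.53, 1.48 and 1.47 in young rats. The old minus young difference was -0.15 in EDL and -0.14 in soleus, in each case with no overlap of the groups. The miR-30b-5p ratio averaged 0.046 ± 0.085 in old EDL against -0.15 ± 0.060 in young EDL, and -0.13 ± 0.016 in old soleus against -0.23 ± 0.029 in young soleus, with all old arrays above all young ones. The miR-30d ratio was higher in old soleus (-0.76 ± 0.10 in old and -1.05 ± 0.12 in young arrays, not overlapping) and overlapped in EDL (-0.98 ± 0.13 in old and -1.14 ± 0.20 in young arrays). The miR-30e ratio was lower in old than young soleus on average (-1.15 ± 0.12 and -0.90 ± 0.11), with overlap.

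**Figure D4:**
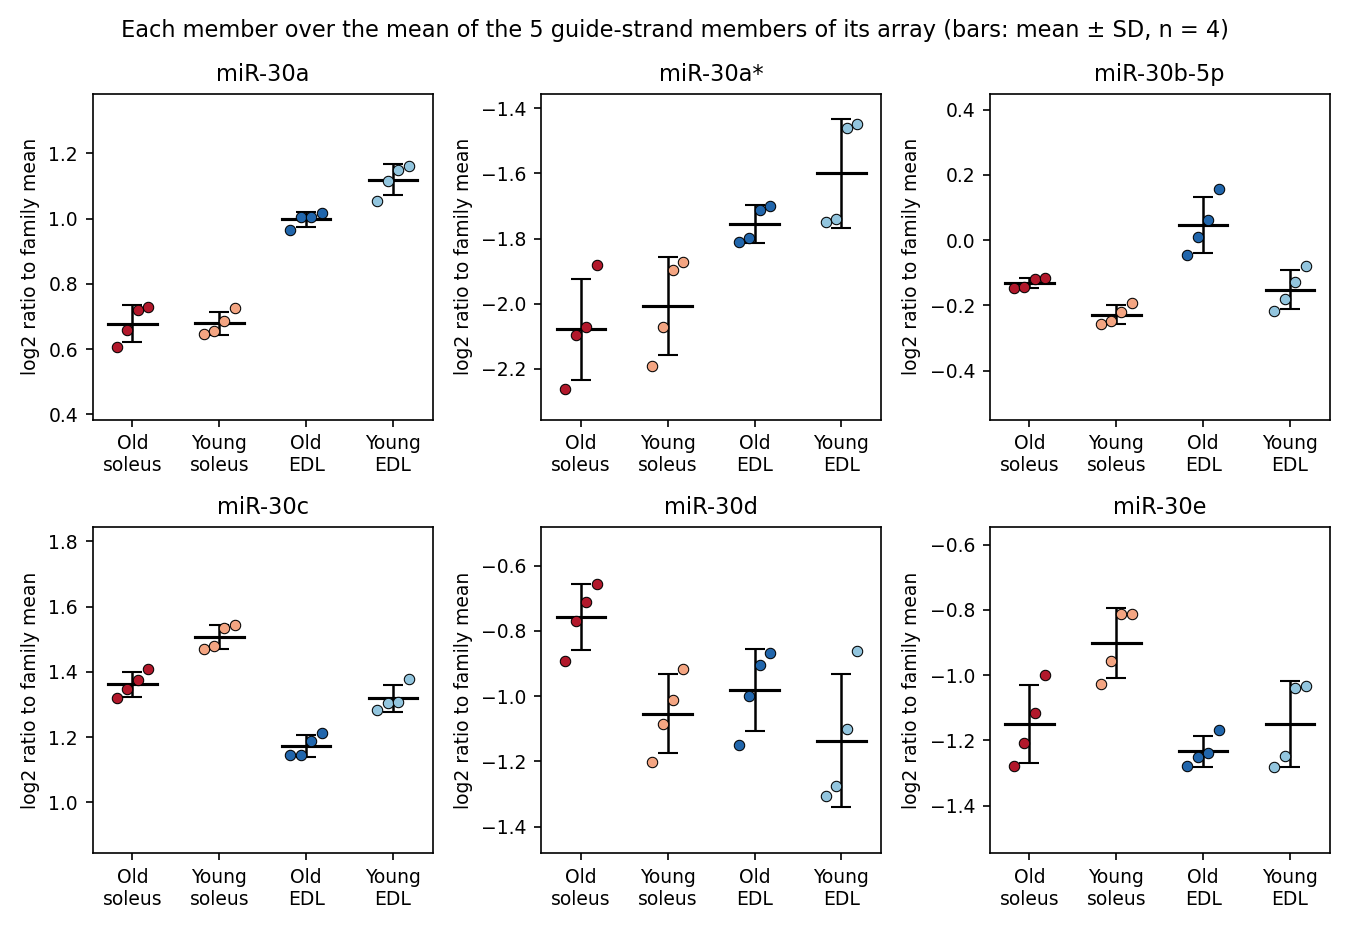
Log2 ratio of each member to the mean of the 5 members from the 5′ arm on the same array, with 1 point per array and bars at the group mean ± SD (n = 4); each panel spans 1 log2 unit. The miR-30c ratio is lower in old than in young arrays of both muscles (in EDL it is 0.080 higher after normexp), and the miR-30a ratio is lower in soleus than in EDL.

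Such separation is common on these arrays. Of the 15 ratios between 2 members, 4 had groups that did not overlap in old against young soleus, where 30% of the 2080 ratios between other measured miRNAs did so. In old against young EDL the count was 3 of 15, beside 26.5%. Between soleus and EDL it was 8 of 15 in old rats, beside 64.6%, and 7 of 15 in young rats, beside 56.9%. The 15 ratios share 6 members and no test was made, so these counts are not a result about the family.

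miR-30a and miR-30a* are cut from one hairpin, and no difference in their ratio passed the test. Its log2 was 2.87, 2.76, 2.79 and 2.61 in old soleus, 2.84, 2.53, 2.80 and 2.58 in young soleus, 2.76, 2.83, 2.72 and 2.70 in old EDL and 2.62, 2.60, 2.79 and 2.86 in young EDL. All groups overlapped. In a limma fit of 13 such arm pairs, the ratio differed by 0.070 in old minus young soleus (95% interval -0.13 to 0.27), by 0.033 in old minus young EDL (-0.17 to 0.23), by 0.0034 in soleus minus EDL of old rats (-0.20 to 0.20) and by -0.034 in that of young rats (-0.23 to 0.17). The adjusted p was 0.59, 0.99, 0.97 and 0.78. Missing the threshold does not show equality, and shifts within these intervals remain possible. Of the 13 pairs, 6 had an arm at the floor on 8 to 16 arrays, where the ratio is not measured. In a limma fit of the other 7, chosen after seeing the data, 2 arm ratios passed between soleus and EDL at each age (miR-133a and miR-378), and 0 of 7 passed for age in soleus or in EDL (limma; 2 of 7 at an unadjusted p under 0.05 in each). The miR-30a pair had an adjusted p of 0.54 to 0.99 for age and of 0.97 (old) and 0.70 (young) between muscles in that fit.

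Of the other miR-30 arms on the array, miR-30e* was the only one bright enough to test. It was well above background on 13 arrays, and was lower in old soleus (-3.71 ± 0.24) than in old EDL (-3.31 ± 0.056), by -0.40 ± 0.14 (adjusted p = 0.032), with no overlap. In young rats it stood at -3.49 ± 0.27 in soleus and -3.15 ± 0.19 in EDL (adjusted p = 0.068). Old minus young differences were -0.22 ± 0.14 in soleus and -0.16 ± 0.14 in EDL (adjusted p = 0.37 and 0.64). In the fit of 13 arm pairs, the ratio of miR-30e to miR-30e* passed in none of these comparisons. It differed by -0.32 in old minus young soleus (95% interval -0.58 to -0.061, limma adjusted p = 0.056). In young soleus minus young EDL it differed by 0.27 (0.017 to 0.53, 0.083). The differences were -0.0090 for age in EDL and -0.036 between old muscles. miR-30c-2* was well above background on 3 arrays, all EDL, and miR-30b-3p, miR-30c-1* and miR-30d* on 0 of 16.

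Each member was read by 2 probes, and their differences were alike. Both probes had the same sign for 6 of 6 members in each of the 4 comparisons of groups. The widest gap between 2 probes of a member was 0.24, for miR-30b-5p in young soleus minus young EDL, where the brighter probe gave -0.39 and the dimmer -0.63. In old minus young soleus the widest gap was 0.12, for miR-30a* (-0.36 and -0.24).

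**Figure D5:**
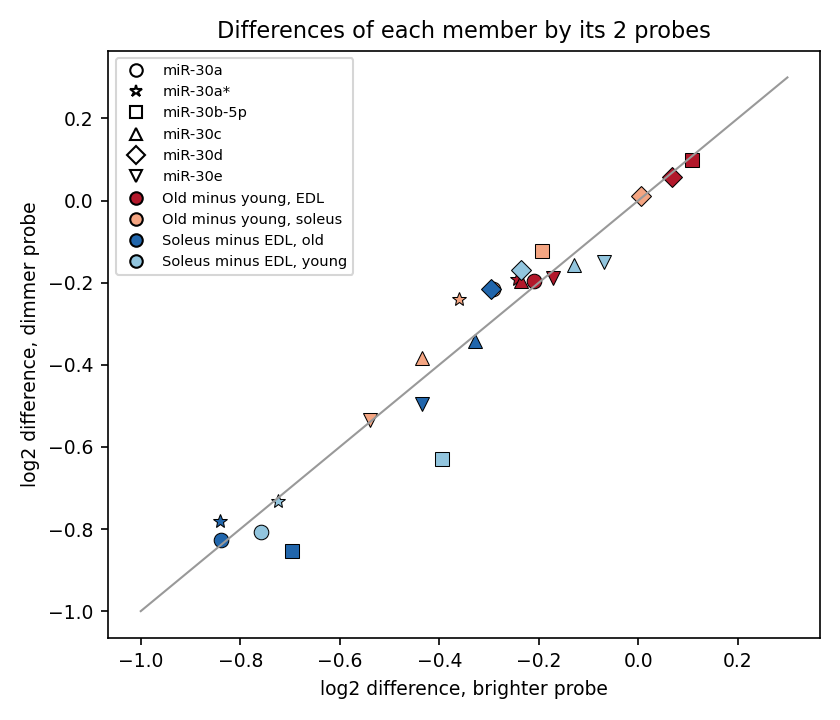
Log2 difference of each member by its dimmer probe against that by its brighter probe, in 4 comparisons (colours) for 6 members (symbols), with the line of equality. The points lie near the line, and miR-30b-5p in the muscle comparisons lies farthest below it.

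The members varied together within groups, except miR-30d. After subtracting group means, the correlation between 2 members over the 16 arrays was 0.92 to 0.95 for the pairs of miR-30a with miR-30b-5p, miR-30c and miR-30e and of miR-30b-5p with miR-30c and miR-30e, whereas those with miR-30d were 0.22 to 0.59. The median over the 15 pairs was 0.74, against 0.30 over 2080 pairs of other miRNAs. Values of one array share its RNA, hybridisation and scaling, so these correlations are descriptions only. Of 65 other miRNAs measured above the floor on all arrays, those most like the members' mean over the 16 arrays were miR-133a (0.95), miR-1 (0.94), miR-22 (0.93), miR-16 (0.93) and miR-181a (0.89). After subtracting group means they were miR-133a (0.90), miR-133b (0.85), miR-1 (0.82), miR-26a (0.82) and miR-22 (0.78). miR-133a, a skeletal and heart muscle miRNA, was lower in soleus than EDL at both ages. Its difference was -0.77 ± 0.091 in old rats and -0.61 ± 0.091 in young rats (limma adjusted p = 2.1e-05 and 0.00016). The skeletal muscle markers did not all go that way: of the 4, 2 were lower and 1 higher in soleus at each age.

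Because miR-30 and other miRNAs are linked to matrix genes in heart, 2 short lists were set beside it. Of 5 miRNAs known to restrain matrix genes (miR-29a, miR-29b, miR-29c, miR-133a, miR-133b), 1 was higher in old than young soleus and 3 were higher in old than young EDL, with 0 lower in each. Their median differences were 0.044 in soleus and 0.59 in EDL. Of all 114 tested miRNAs, 2 were higher with age in soleus and 12 in EDL. Of 4 miRNAs linked to fibrosis (miR-21, miR-199a-3p, miR-199a-5p, miR-214), 1 was higher in each muscle with age and 0 were lower, with median differences of 0.59 in soleus and -0.16 in EDL. At an unadjusted p under 0.05 (limma) the count was 4 of 4 in soleus and 1 of 4 in EDL. For the 5 that restrain matrix genes it was 3 of 5 in each muscle. Over all tested miRNAs the share was 30.7% in soleus and 22.8% in EDL. Between the muscles, 1 of these 4 was lower in old soleus than old EDL (median -0.15). In young soleus 4 of 4 were lower than in young EDL (median -0.72). Of the 5 that restrain matrix genes, 3 were lower in old soleus (median -0.45) and 1 in young soleus (median 0.0016). Over all tested miRNAs, 32.5% were lower in old soleus and 23.7% in young soleus.

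Markers of muscle fibres and of other cells also moved with some of these comparisons, as did many other miRNAs. For age in soleus, 30.7% of all tested miRNAs had an unadjusted p under 0.05 (limma). On 13.2% every old soleus array lay below every young one. For age in EDL, 12.3% passed and 22.8% had an unadjusted p under 0.05. Between the muscles, 32.5% were lower in old soleus and 23.7% in young soleus. The 4 skeletal muscle markers summed to 54.0 to 64.0 in old soleus against 67.7 to 79.2 in young soleus, without overlap, in units of the scaling percentile, and 0 of 4 passed for age there (limma; 3 of 4 at an unadjusted p under 0.05). In EDL they summed to 54.0 to 60.8 in old rats against 46.7 to 59.8 in young rats, with 1 of 4 higher. Slow-fibre miR-499 was at 0.277 to 0.394 in old soleus against 0.396 to 0.625 in young soleus, also without overlap, and its difference did not pass. In old EDL miR-499 was at 0.019 to 0.036, against 0.011 to 0.037 in young EDL. These are values before flooring, and those under the floor of 0.0339 were raised to it in the fit. The 3 fibroblast markers (miR-199a-3p, miR-199a-5p, miR-214) summed to 0.32 to 0.39 in old soleus against 0.22 to 0.30 in young soleus. With age in soleus 1 of 3 was higher (limma; 3 of 3 at an unadjusted p under 0.05). In old EDL they summed to 0.32 to 0.48 against 0.36 to 0.57 in young EDL, with 0 of 3 passing (limma; 0 of 3 at an unadjusted p under 0.05). Between the muscles 0 of 3 passed in old rats (median -0.10; likewise 0 of 3 unadjusted), and 3 of 3 were lower in young soleus than young EDL. Smooth muscle miR-143 and miR-145 summed to 0.41 to 0.53 in old soleus against 0.64 to 0.85 in old EDL and to 0.47 to 0.60 in young soleus against 0.62 to 0.84 in young EDL, with 2 of 2 lower in soleus at each age. Endothelial miR-126 and miR-126* summed to 0.39 to 0.48 in old soleus, 0.43 to 0.51 in young soleus, 0.49 to 0.71 in old EDL and 0.46 to 0.64 in young EDL, and miR-126 was lower in old soleus than old EDL. miR-126* was at the floor of each of the 16 arrays, so miR-126 is the one measured member. The leukocyte list summed to 0.25 to 0.31 in old soleus, 0.25 to 0.31 in young soleus, 0.28 to 0.34 in old EDL and 0.25 to 0.28 in young EDL; 2 of its 4 members were tested (miR-223 and miR-150), of which 1 was higher and 1 lower in soleus at each age and 0 passed for age (limma; unadjusted, 0 in soleus and 1 in EDL). The erythroid list summed to 0.016 to 0.12 in old soleus, 0.025 to 0.029 in young soleus, 0.023 to 0.24 in old EDL and 0.018 to 0.036 in young EDL, and its tested member, miR-451, passed in no comparison. Leukocyte miR-142-3p and miR-142-5p and erythroid miR-144 were too dim to test. The part of these fibres and cells in the miR-30 differences was not tested.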

How the data were processed

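MicroRNA of 16 muscle samples was read on single-colour Agilent rat arrays. The spot intensity values were deposited as Feature Extraction 10.7.3.1 gave them, per the file headers (protocol miRNA_107_Sep09, grid on build rn4), and the processed signal is background-treated but not scaled between arrays. The depositors' series table held equal values in 100% of cells.

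Outlier-marked spots (3.03%) were left out and the 5 to 20 spots of a probe averaged. Arrays were divided by the percentile described above, values under 0.0339 were raised to that floor, and log2 was taken. The floor lay above the dimmest detected signal on the 8 EDL arrays and on 0 soleus arrays, but below every member's level. The brightest probe stood for a miRNA, and miRNAs well above background (over 0.5 of spots) on 4 or more arrays were tested.

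The 4 groups were fitted together with limma 3.58.1 in R 4.3.3, with 5 two-sided contrasts and Benjamini-Hochberg adjustment over the tested miRNAs at 0.05, checked on simulated data. Every adjusted p in the text is limma's; errors of differences are standard errors and those of means are SDs. Alternatives covered scaling, background correction, signal column, probe rule, filter, floor, samples fitted, a brightness covariate, blocks by replicate number and omission of single arrays. A further 4 were added after seeing the data: both spike-out-of-range young soleus arrays left out, the median scaling, constant miRNAs left out, and only arm pairs never at the floor. Likeness was the correlation with the members' mean standardised level. The members and lists were chosen with earlier results of these data known.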

Additional observations from a re-analysis of the deposited data

How the results depend on the processing

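With 4 arrays a group, the number of arrays limits the precision, and soleus arrays had less signal over background. The cause of the changes below was not tested. Of 972 alternative values of single members, 832 kept direction and side of the threshold, 50 lost it, 31 gained it and 59 changed sign; 34 of 540 within-array ratio differences moved by more than 1 SD and 18 changed sign.

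Of 6 members, the number passing for age in soleus (1) became 0 with the percentile over all probes, no scaling, normexp, the mean over probes, a floor 2 times higher or only the compared groups in the fit. It became 2 with quantile normalisation, a filter of 8 arrays, a floor 2 times lower, the brightness covariate, constant miRNAs left out or the median of detected probes, 4 without young soleus 7 and 8, and 5 with spike-ins. For age in EDL (0) it became 1 with quantile normalisation and 3 with the median. For the difference between muscles in age effect (0) it became 3 with spike-ins. For soleus minus EDL in old rats (6) it became 3 with spike-ins, total gene signal or the median, 2 with the brightness covariate, 1 with normexp, 4 with quantile normalisation and 5 with the mean over probes. In young rats (3) it became 4 with quantile normalisation, 6 without scaling, 5 with the all-probe percentile and 1 with normexp. With spike-ins it stayed 3, but all 3 were higher in soleus. miR-30b-5p was lost there with total gene signal, with only the compared groups and without young soleus 7 and 8. Leaving out 1 array gave 0 to 4 for age in soleus, 3 to 6 for old and 2 to 4 for young rats between muscles, and 0 for age in EDL and for the difference of age effects.

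Signs changed as follows. In the difference of age effects, normexp gave 0.59 for miR-30a*, 0.026 for miR-30b-5p, 0.33 for miR-30d and 0.27 for miR-30e, and the median gave 0.20 for miR-30a, 0.16 for miR-30a*, 0.082 for miR-30c and 0.22 for miR-30d. Quantile normalisation gave 0.0070 for miR-30b-5p and 0.13 for miR-30d, and total gene signal 0.094 for miR-30a*. In EDL with age, no scaling gave 0.056, 0.023, 0.030 and 0.094 for miR-30a, miR-30a*, miR-30c and miR-30e. For miR-30b-5p the all-probe percentile, quantile, normexp and median settings gave -0.20, -0.12, -0.15 and -0.056, and for miR-30d -0.24, -0.036, -0.27 and -0.098. In soleus with age, normexp gave 0.0049 for miR-30a*, and miR-30d was -0.37 with the all-probe percentile, -0.26 unscaled, -0.29 with spike-ins, -0.023 with total gene signal, -0.034 with the covariate and -0.053 without young soleus 7 and 8. Between muscles in old rats, normexp gave 0.033, 0.054 and 0.022 for miR-30a*, miR-30d and miR-30e, spike-ins 0.028 and 0.061 and the median 0.10 and 0.14 for miR-30c and miR-30d. In young rats, spike-ins gave 0.21, 0.48, 0.37 and 0.54 for miR-30b-5p, miR-30c, miR-30d and miR-30e. miR-30c was 0.048 with total gene signal and 0.021 with the median. miR-30e was 0.045 with quantile normalisation, 0.095 with total gene signal, 0.20 with the covariate, 0.081 with the median and 0.13 without young soleus 7 and 8.

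Leaving out 1 array gave ranges that crossed 0 for the difference of age effects of miR-30a (-0.17 to 0.014), miR-30a* (-0.25 to 0.014) and miR-30d (-0.12 to 0.062), for miR-30d with age in EDL (-0.056 to 0.13) and in soleus (-0.058 to 0.044), and for miR-30e between muscles in young rats (-0.16 to 0.058).

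The arm ratio of miR-30a and miR-30a* changed sign with normexp for age in soleus (-0.24), the difference of age effects (-0.62) and old muscles (-0.72), and for old muscles with the mean over probes (-0.022) and a higher floor (-0.031). Leaving out 1 array gave -0.0073 to 0.081 for age in EDL, -0.015 to 0.088 for the difference of age effects, -0.034 to 0.052 for old and -0.084 to 0.019 for young muscles.

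Over all tested miRNAs the number called for age in soleus (4) became 39 with spike-ins, 12 with a filter of 8 arrays and 10 with constant miRNAs left out. For age in EDL (14) it was 0 without scaling, and between muscles 7 in old (61) and 5 in young rats (49) with normexp. Whether EDL and soleus arrays of equal replicate number came from the same rat is not in the labels. Of 8 numbers, 4 had an EDL and soleus correlation over 0.1 (-0.56 to 0.58) and 2 matched best with their own number. These correlations between different muscles on different slides cannot decide it. With the number as a replicate block the counts were 1 for age in soleus, 0 for age in EDL, 0 for the difference of age effects, 6 in old and 2 in young rats between muscles, where miR-30b-5p had a limma adjusted p of 0.058.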
